A study of Saccharomyces cerevisiae with 6 samples.

Results

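The 10 genes described here carry out or control the making and recycling of S-adenosylmethionine and the uptake of sulfur into amino acids: *SAM1*, *SAM2*, *SAH1*, *ADO1*, *MET13*, *CYS4*, *CYS3*, *MET14*, *MET16* and *MET4*. They were chosen by name, from the 4970 genes that have an H3K4me3 peak in at least 1 of the deposited lists. All 10 are listed in both genotypes, beside 91.1% of the 4970 genes. The choice was made with earlier results of these data known, so this presence is a description and not a test. The study asked how Jhd2, the histone demethylase that acts on lysine 4 of histone H3, shapes this mark in respiring *Saccharomyces cerevisiae*. WT and *jhd2∆* cells of the BY4742 strain (MSY723 and MSY724) were grown in YAR, a synthetic medium with raffinose as the carbon source and ammonium as the nitrogen source, to an optical density of 0.5, and H3K4me3 was read by ChIP-Seq, the sequencing of DNA pulled down with an antibody against the mark. Both are prototrophic, and the *jhd2∆* cells carry a hygromycin resistance marker in place of *JHD2*; the labels give the mating type of both as Mat a, whereas the study's strain list gives MATα. Each of the 2 genotypes is represented by 1 H3K4me3 library, so no difference below has a replicate against which it could be set. No p-value is given. By western blot, the study reported more bulk H3K4me3 in *jhd2∆* than in WT in YAR. The p-value printed in the legend of that blot lies above the conventional threshold of significance. By ChIP-Seq in YAR, the study found broader H3K4me3 domains in *jhd2∆* over many genes. Its authors suspect that normalization without an added external control hid a genome-wide gain in the ChIP-Seq data. ChIP followed by PCR gave more H3K4me3 in *jhd2∆* at selected genes whose breadth had not increased. An unchanged breadth or a lower pileup below thus does not show that a gene gained no mark. The authors think the increased breadth may reflect a genome-wide gain, visible only at some peak edges because of the normalization. They also report that genes with increased breadth did not correlate with the mRNAs regulated by *JHD2*. A wider peak below thus does not show a gain particular to that gene.

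S-adenosylmethionine is the methyl donor of nearly all methyltransferases, among them Set1, which methylates lysine 4 of histone H3. The transfer leaves S-adenosylhomocysteine, a product that inhibits methyltransferases until it is split into adenosine and homocysteine. Homocysteine is then methylated back to methionine or passed along the transsulfuration pathway to cysteine, and sulfate taken up from the medium supplies new sulfur. Yeast adjusts the transcription of these genes to its supply of sulfur amino acids through the activator Met4.

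The lists hold, for each peak, where it starts and ends, how wide it is in bp (breadth) and how high the reads stack within it (pileup). The WT list has 4452 peaks and the *jhd2∆* list 4713, and the lists carry no read totals, so the depth of each library cannot be read from them. Positions are as the lists give them, which name no genome build, and peaks were attributed to genes by the authors from overlap with the start of the coding region. At the deleted gene *JHD2* (YJR119C) the WT list has a peak of 503 bp and the *jhd2∆* list has no peak, as the labels require. This is a weak check, since the WT peak stood above only 8.17% of genes in pileup. Moreover, 2.05% of all genes are listed in WT alone. None of the 10 genes has more than 1 peak in either list, and none of their peaks is attributed to a further gene.

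Of the 10 genes, 9 had a wider peak in *jhd2∆* and 1 a narrower one, beside 63.2% wider among the 4526 genes listed in both genotypes. The median difference over the 10 genes was 58.5 bp, from -20 to 491 bp, and over all genes it was 17 bp. A difference of more than 100 bp was used as the limit for a called gene. By that limit *MET4*, *SAH1* and *CYS3* were wider, 3 of 10 beside 14.2% of all genes, and 0 of 10 were narrower, beside 1.30% of all genes. With a limit of 50 bp, 6 of 10 were wider (29.1% of all genes) and 0 narrower (5.86%), and with 200 bp, 2 were wider (3.62%) and 0 narrower (0.464%). The 10 genes were not spread evenly over the range of pileup: when all genes were split into 5 groups by WT pileup, 7 were in the highest group and 3 in the next. In those groups, of 905 genes each, 7.07% and 9.17% were wider by more than 100 bp. These shares describe the lists and carry no test.

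**Figure D1:**
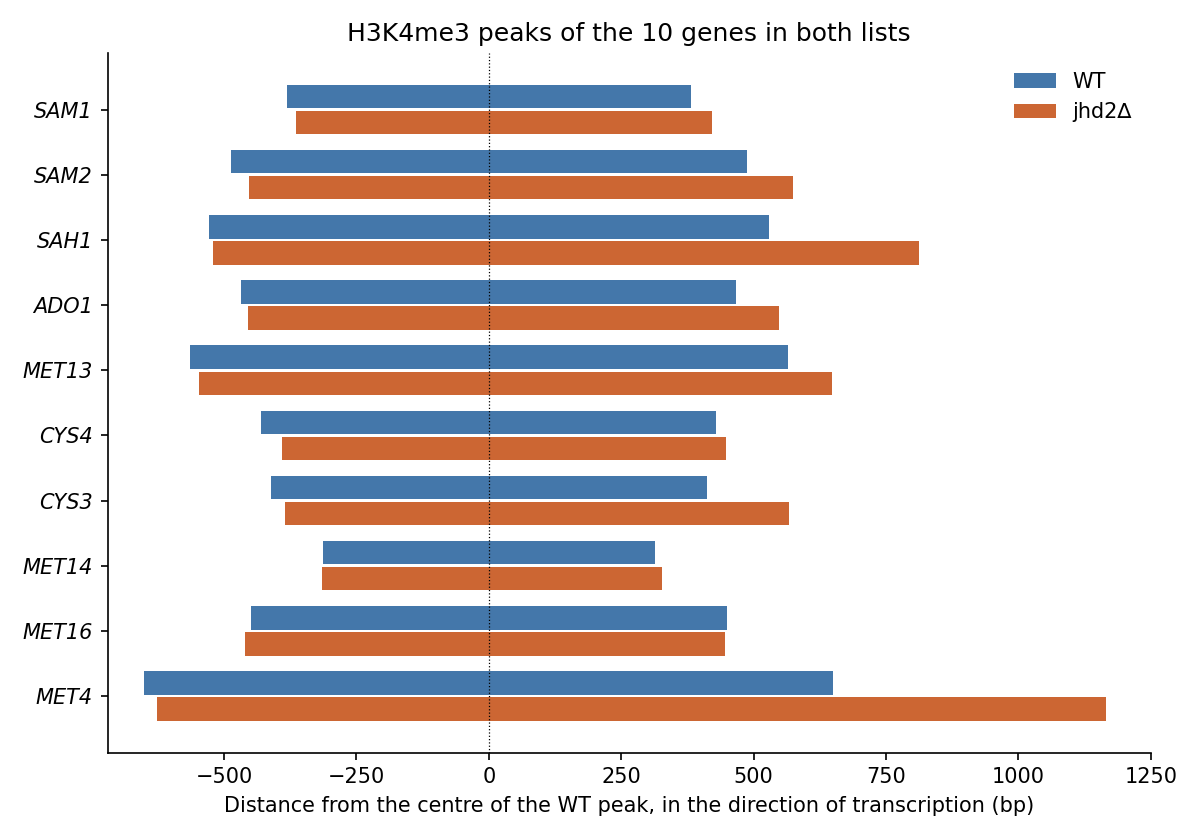
The extent of each H3K4me3 peak in WT (blue) and *jhd2∆* (orange) is drawn as a bar along the direction of transcription, in bp from the centre of the WT peak. The bars of *MET4*, *SAH1* and *CYS3* reach 514, 285 and 154 bp further downstream in *jhd2∆*, while those of *MET14* and *MET16* nearly coincide.

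*SAM1* and *SAM2* encode the S-adenosylmethionine synthetases of yeast, close paralogs that join methionine to ATP. The *SAM1* (YLR180W) peak on chromosome XII ran from 515191 to 515953 in WT (763 bp) against 515208 to 515992 in *jhd2∆* (785 bp). The *SAM2* (YDR502C) peak on chromosome IV ran from 1453623 to 1454597 in WT (975 bp) against 1453537 to 1454563 in *jhd2∆* (1027 bp). The *SAM2* peak was thus the broader of the pair in each library, and the differences between the genotypes, 22 bp at *SAM1* and 52 bp at *SAM2*, lay above those of 53.4% and 71.1% of genes. Reads were aligned with the standard settings of Bowtie2, by which a read that matches several places equally well is put at a single one of them, picked at random. Whether such reads were removed afterwards is not given in the sources used here. How many reads at this pair match both genes was not examined, so its values may be less certain than those of single genes.

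*SAH1* encodes S-adenosylhomocysteine hydrolase, which removes the inhibitory product of methyl transfer. Its peak (YER043C, chromosome V) had 1056 bp in WT (236159 to 237214) against 1334 bp in *jhd2∆* (235874 to 237207). The gene lies on the Crick strand, so its downstream edge is the lower coordinate, and that edge lay 285 bp further along the gene in *jhd2∆* while the upstream edge shifted by -7 bp, where a negative shift is inward. The difference of 278 bp, 26.3% of the WT breadth, was larger than that of 98.2% of genes and stood in place 81 from the largest. Set against a gene length of 1349 bp in the WT list, the breadth was 78.3% of the length in WT and 98.9% in *jhd2∆*. A peak may begin ahead of the coding region, so this ratio is not the share of the gene that was covered.

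*ADO1* encodes adenosine kinase, which takes up the adenosine that Sah1 releases. Its peak (YJR105W, chromosome X) measured 935 bp in WT (623550 to 624484) against 1004 bp in *jhd2∆* (623562 to 624565). *MET13* encodes the methylenetetrahydrofolate reductase that provides the methyl group for turning homocysteine into methionine. Its peak (YGL125W, chromosome VII) measured 1130 bp in WT (272411 to 273540) against 1195 bp in *jhd2∆* (272428 to 273622). Differences of 69 and 65 bp placed *ADO1* and *MET13* above 77.7% and 76.4% of genes, under the limit of 100 bp.

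The transsulfuration genes did not move alike. *CYS4* encodes cystathionine beta-synthase, the first step from homocysteine toward cysteine, and its peak (YGR155W, chromosome VII) had 859 bp in WT (798438 to 799296) against 839 bp in *jhd2∆* (798477 to 799315). This was the narrower peak among the 10 genes, with a difference of -20 bp that came from a shift of -39 bp at the upstream edge and 19 bp at the downstream edge. *CYS3* encodes cystathionine gamma-lyase, the second step, and its peak (YAL012W, chromosome I) had 824 bp in WT (130721 to 131544) against 951 bp in *jhd2∆* (130748 to 131698). The *CYS3* difference of 127 bp was larger than that of 90.9% of genes, and the *CYS4* difference was larger than that of only 19.3%.

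*MET14* and *MET16* act in sulfate assimilation, as adenylylsulfate kinase and as the reductase of its product. Both genes are short, with lengths of 608 and 785 bp in the WT list. The *MET14* (YKL001C) peak on chromosome XI covered 627 bp in WT (438864 to 439490) against 643 bp in *jhd2∆* (438850 to 439492). The *MET16* (YPR167C) peak on chromosome XVI covered 900 bp in WT (876835 to 877734) against 907 bp in *jhd2∆* (876839 to 877745). In both genotypes these breadths exceeded the gene's length, at 103% and 106% for *MET14* and at 115% and 116% for *MET16*. Their differences of 16 and 7 bp were the smallest in size among the 10 genes, and they were also the pair whose upstream edge moved outward, by 2 bp at *MET14* and 11 bp at *MET16*.

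*MET4* encodes the leucine zipper activator that switches on the sulfur genes together with DNA-binding partners. Its peak (YNL103W, chromosome XIV) spanned 1301 bp in WT (427539 to 428839) against 1792 bp in *jhd2∆* (427562 to 429353). The *jhd2∆* peak was the broadest of all 4713 peaks in its list, ahead of the 1764 bp of *PCL10*, and the WT peak stood in place 55 of 4452. The difference of 491 bp, 37.7% of the WT breadth, was the largest among the 10 genes and stood in place 19 of 4526. It lay at the downstream end, where the edge ran 514 bp further into the gene, while the upstream edge shifted by -23 bp. Against a gene length of 2018 bp the breadth was 64.5% in WT and 88.8% in *jhd2∆*.

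**Figure D2:**
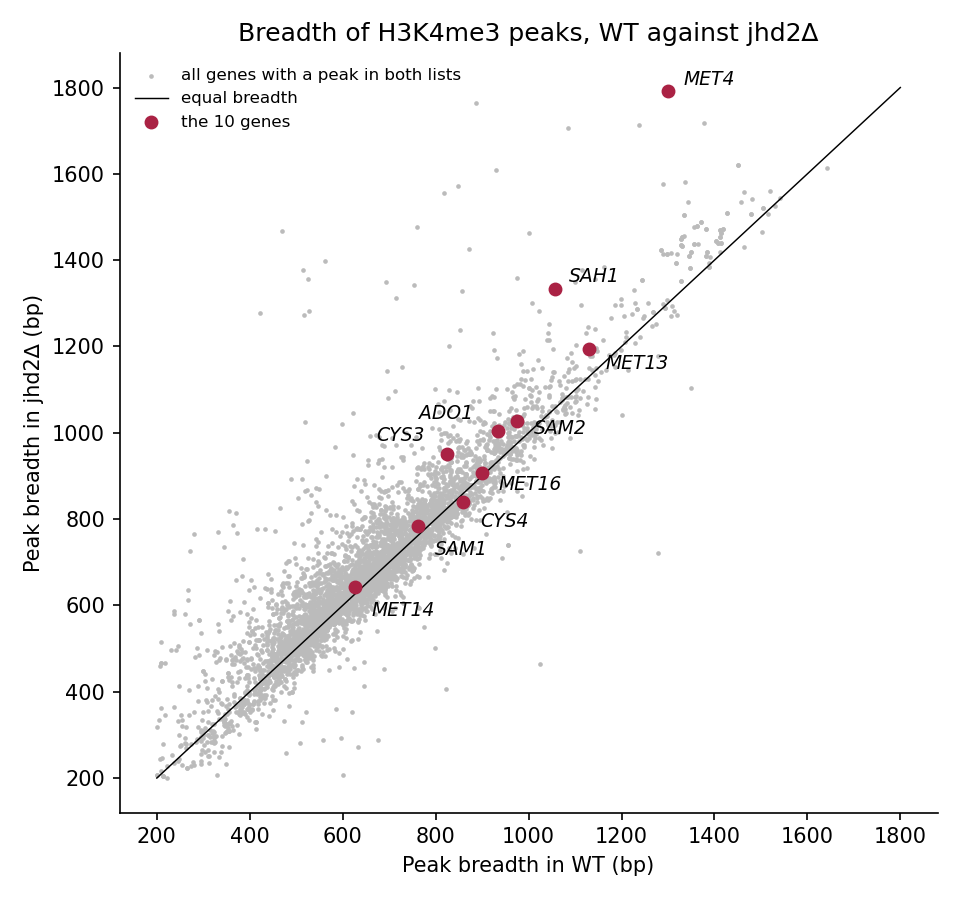
Each point is a gene listed in both genotypes, with its breadth in WT on the horizontal axis and in *jhd2∆* on the vertical axis, in bp; the line marks equal breadth and red points are the 10 genes. *MET4* is the highest point, at 1792 bp in *jhd2∆*, *SAH1* lies well above the line, and *CYS4* lies just under it.

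The genes nearest to *MET4* in the shift of both edges, by Euclidean distance, were *DLD1* (YDL174C) at 13.2 bp, *UPA1* (YGR283C) at 14 bp and *ARH1* (YDR376W) at 23.5 bp. *DLD1* had a peak of 1237 bp in WT against 1713 bp in *jhd2∆*, and *ARH1* of 1000 and 1463 bp. *UPA1* was reached from a narrower start, with 519 bp in WT against 1024 bp in *jhd2∆*. This likeness rests on 1 pair of libraries and on both edges alone.

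Edges were oriented by the strand letter of the systematic name. At 8 of the 10 genes the upstream edge was drawn in and the downstream edge lay further along the gene, a combination found at 62.5% of the 4521 genes that could be oriented. The upstream edge was drawn in at 8 of 10, beside 80.6% of all genes, and its median shift was -17 bp, beside -13 bp over all genes. The downstream edge ran further at 9 of 10, beside 77.4% of all genes, and its median shift was 81.5 bp, beside 29 bp over all genes. The upstream shifts of the 10 genes kept to a range of -39 to 11 bp, and the downstream shifts ran from -4 bp at *MET16* to 514 bp at *MET4*. Nearly all the spread in breadth differences among the 10 genes therefore came from the downstream edge. In the group of highest WT pileup, which holds 7 of the 10, the median downstream shift was 14 bp, and in the next group it was 25 bp.

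**Figure D3:**
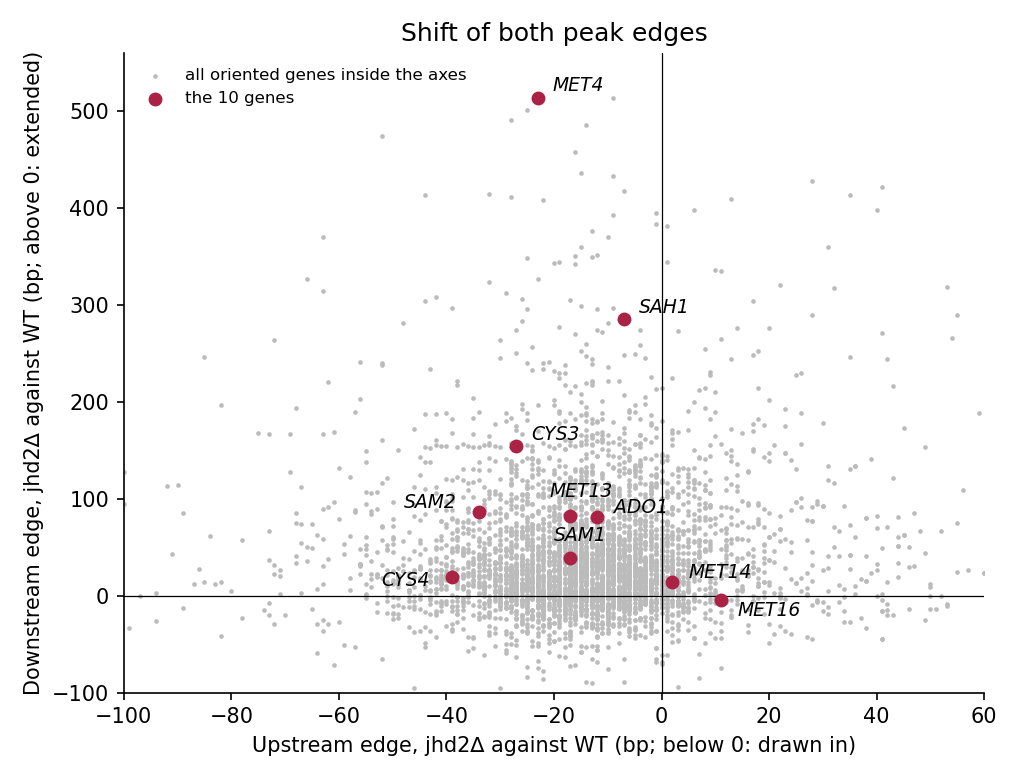
The shift of the upstream edge (horizontal, bp, below 0 where the edge was drawn in) is plotted against that of the downstream edge (vertical, bp, above 0 where it ran further) for genes listed in both genotypes; 128 of the 4521 oriented genes lie outside the axes. The 10 genes (red) span -39 to 11 bp on the horizontal axis and -4 to 514 bp on the vertical axis.

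Pileup heights were ranked within each list, since the lists do not state a common scale. All 10 genes had tall peaks. In WT their pileups ran from 317 at *ADO1* to 341 at *SAH1*, where the median over listed genes was 301. In *jhd2∆* they ran from 282 at *MET16* to 323 at *SAH1*, where the median was 272. *SAH1* was the tallest of the 10 in each list, above 95.8% of genes in WT and 98.3% in *jhd2∆*, followed in WT by *MET14* at 339 and *SAM2* at 336.

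Differences in pileup rank among the 10 genes, *jhd2∆* minus WT, ran from -12.7 points at *MET16* to 15.6 points at *ADO1*. Among the further sulfur genes described below they ran from -18.3 points at *MET17* to 29.3 points at *STR3*. How many of all genes moved by as much was not counted. *MET4*, whose breadth differed most, had a pileup of 324 in WT and 295 in *jhd2∆*, above 83.0% and 82.9% of genes. The largest changes of rank were at *ADO1*, from 73.9% to 89.5% of genes below it, and at *MET16*, from 78.0% to 65.3%, with pileups of 317 and 302 at *ADO1* and of 320 and 282 at *MET16*. Height and breadth were not the same property: *MET14* stood above 95.0% of genes in WT pileup but above only 42.3% in WT breadth. The other 9 genes stood above 72.1% to 98.1% of genes in WT breadth.

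**Figure D4:**
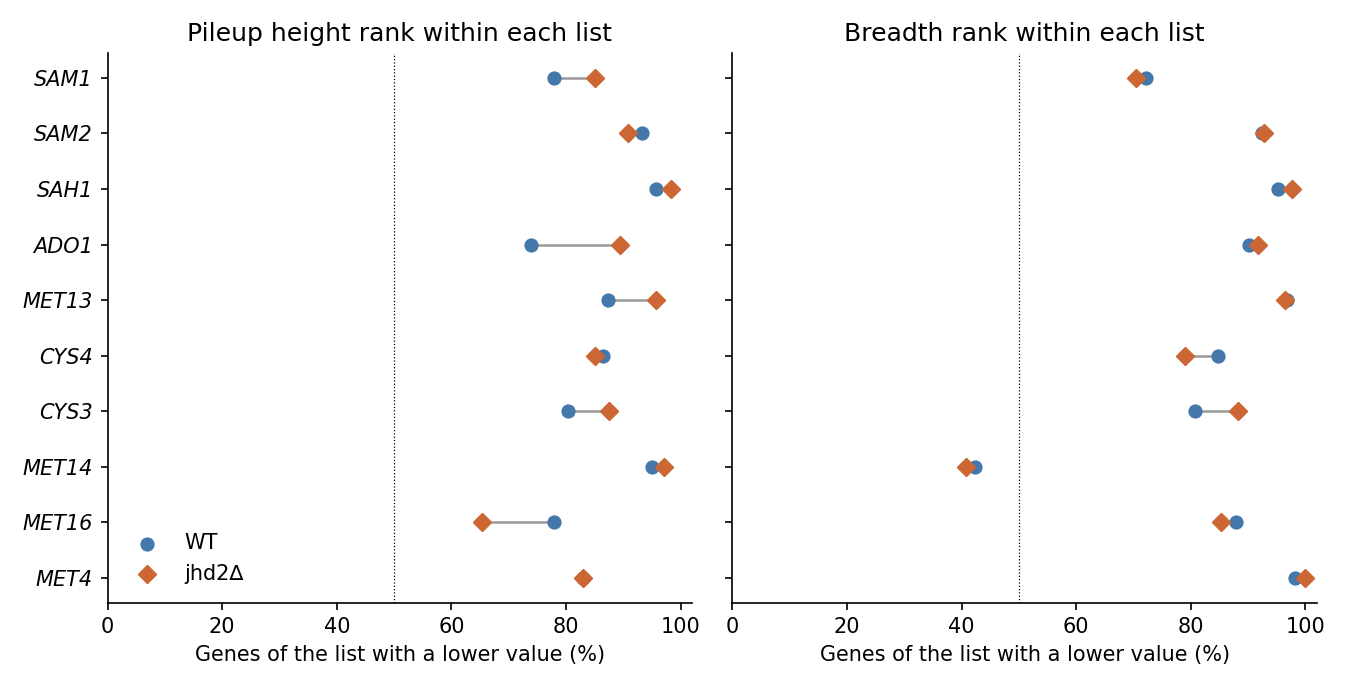
For each of the 10 genes the share of genes in the same list with a lower pileup (left) and a smaller breadth (right) is shown in percent, as a blue circle for WT and an orange diamond for *jhd2∆*; the dotted line is at 50%, and at *MET4* the symbols for pileup coincide. All pileup ranks lie between 65.3% and 98.3%, and *MET14* is the gene whose breadth rank falls under 50%, at 42.3% in WT and 40.7% in *jhd2∆*.

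The neighbouring peaks show what lay beyond the edges, and downstream they are described for the 3 genes past the limit of 100 bp. Peaks carry the number of the original call, and these numbers increase along every chromosome without a break in order, so a skipped number marks a call that the list leaves out. Downstream of *MET4* the next listed peak is that of *POL1*, which encodes the catalytic subunit of DNA polymerase alpha, and the gap to it was 1156 bp in WT against 650 bp in *jhd2∆*. Downstream of *SAH1* lies the peak of the convergent gene *MXR1*, a methionine sulfoxide reductase, with a gap of 750 bp in WT against 406 bp in *jhd2∆*. Downstream of *CYS3* lies the peak of *SWC3*, a subunit of the SWR1 remodelling complex, with a gap of 639 bp in WT against 497 bp in *jhd2∆*. In none of these 3 gaps did the WT numbers skip a call, so no separate WT call lay in the added stretch.

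On the other side, 5 of the 10 genes face a divergent neighbour across their promoter. *LEU4*, which encodes an alpha-isopropylmalate synthase of leucine synthesis, is divergent from *MET4*, and its peak (YNL104C) measured 1099 bp in WT against 1350 bp in *jhd2∆*. The *LEU4* upstream edge shifted by -63 bp and its downstream edge by 314 bp, so in *jhd2∆* both peaks of the pair lay further from the shared promoter and reached further into their genes. The gap between them was 647 bp in WT against 733 bp in *jhd2∆*. *CYS4* is divergent from *GTO1*, an omega-class glutathione transferase, whose peak (YGR154C) was 226 bp wider in *jhd2∆* (640 and 866 bp) while that of *CYS4* was 20 bp narrower. The gap between the *GTO1* and *CYS4* peaks was 379 bp in WT against 428 bp in *jhd2∆*, and that between the peaks of YLR179C and *SAM1* was 453 and 494 bp. The gap was thus larger in *jhd2∆* for all 3 divergent pairs in which both genes are listed in both genotypes, beside 89.4% of 852 such pairs across the genome, where the median change was 29 bp.

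The remaining divergent pairs could not be compared. *SOD1*, the copper-zinc superoxide dismutase gene divergent from *ADO1*, is listed in WT, with a peak of 672 bp and a pileup of 336, and not in *jhd2∆*. *NUT2*, a Mediator subunit gene divergent from *MET16*, is listed in *jhd2∆*, with a peak of 649 bp and a pileup of 292, and not in WT. In each case the other list's numbers skip 1 call between its flanking listed peaks, which lie 1990 bp apart at *SOD1* and 5455 bp apart at *NUT2*. Where in that interval the call lay is not known. Absence from a list therefore does not show that no peak was called at the gene.

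The wider sulfur network was described through 30 further genes of sulfate assimilation, transport, methionine synthesis and recycling, transsulfuration, glutathione synthesis and regulation. Of these, 26 have a peak in both lists, 3 in *jhd2∆* alone and 1 in WT alone, beside 6.88% and 2.05% of all 4970 genes listed in 1 genotype alone. Of the 26 genes, 19 were wider in *jhd2∆* and 7 narrower, with a median difference of 24.5 bp and a range of -132 to 176 bp. By the limit of 100 bp, 2 were wider and 2 narrower. Over all genes, 63.2% were wider at all, 14.2% were wider by more than 100 bp and 1.30% narrower by more than 100 bp. The median of the 10 genes, 58.5 bp, lay above that of this list, and their WT peaks were broader, with a median of 917.5 bp beside 787 bp.

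The genes past the limit were the members of a pair in each direction. *STR2* and *STR3*, which encode cystathionine gamma-synthase and cystathionine beta-lyase and run transsulfuration from cysteine toward homocysteine, were wider. *STR2* had a peak of 784 bp in WT against 920 bp in *jhd2∆*, a difference of 136 bp. *STR3* had one of 511 and 687 bp, a difference of 176 bp and the largest of the 26. Of the transsulfuration genes described above, *CYS3* differed by 127 bp and *CYS4* by -20 bp.

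*SUL1* and *SUL2*, which encode the high-affinity sulfate permeases, were narrower. *SUL1* had a peak of 609 bp in WT against 477 bp in *jhd2∆*, a difference of -132 bp and the smallest of the 26, and *SUL2* one of 841 and 732 bp, a difference of -109 bp. Both edges of both peaks were drawn in, with upstream and downstream shifts of -99 and -33 bp at *SUL1* and of -25 and -84 bp at *SUL2*. Their heights were unlike: *SUL1* stood above 8.04% of genes in WT pileup and *SUL2* above 80.4%.

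**Figure D5:**
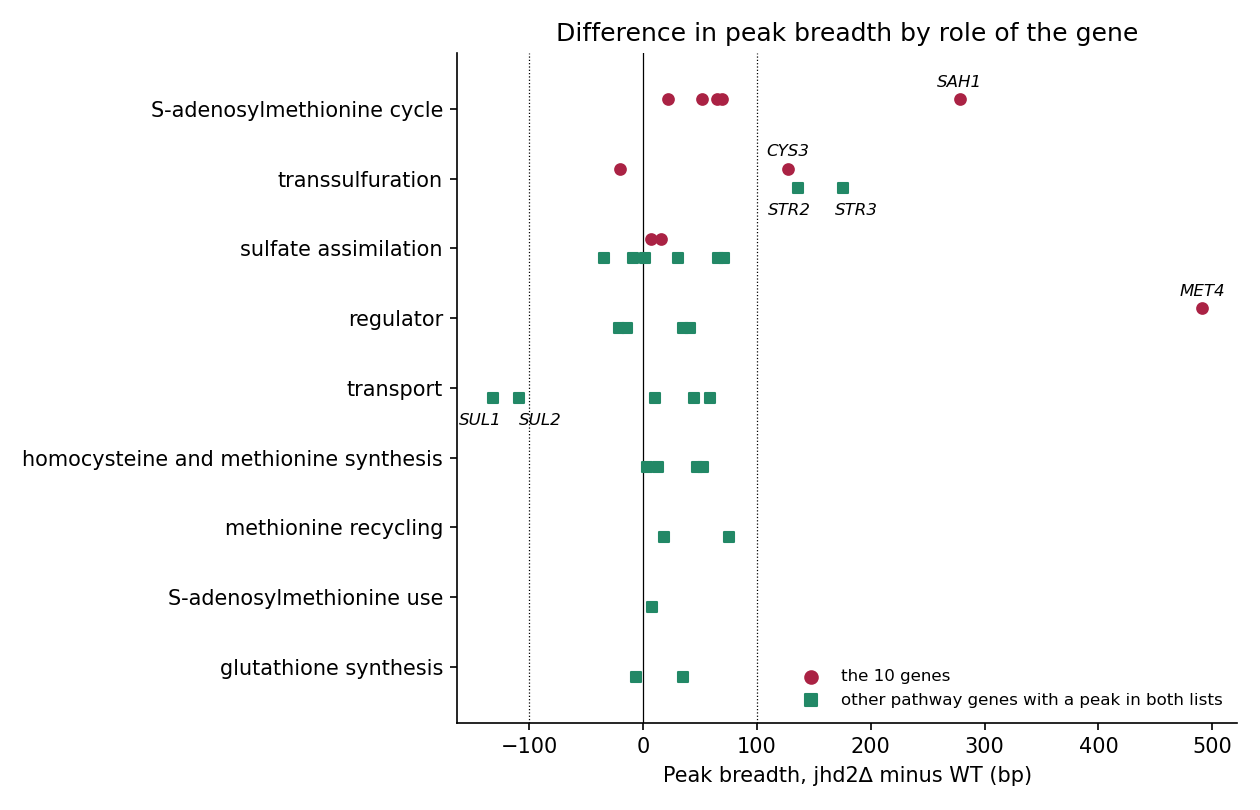
The difference in peak breadth (*jhd2∆* minus WT, bp) is plotted by role for the 10 genes (red circles) and for the 26 further pathway genes listed in both genotypes (green squares); dotted lines mark a difference of 100 bp in each direction. *MET4*, *SAH1*, *CYS3*, *STR2* and *STR3* lie past 100 bp, and *SUL1* and *SUL2* past it in the other direction, at -132 and -109 bp.

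The 4 regulators acting with Met4 that are listed in both genotypes stayed within 100 bp, as did 3824 of all 4526 genes. *CBF1* and *MET31*, which encode DNA-binding partners of Met4, differed by -14 and -21 bp. *MET28*, which encodes a further partner, and *MET30*, which encodes the ubiquitin ligase subunit that restrains Met4, differed by 35 and 41 bp, and the *MET28* peak is attributed to 2 genes in each list. *MET32* is listed in WT alone, with a peak of 426 bp and a pileup of 301. The genes listed in *jhd2∆* alone were *MUP1*, the high-affinity methionine permease gene, with a peak of 218 bp, *MET12*, which encodes a further methylenetetrahydrofolate reductase, with 688 bp, and *MEU1*, the methylthioadenosine phosphorylase gene, with 735 bp. The *MUP1* peak had a pileup of 179, above 0.431% of genes, and the WT numbers skip no call around it. Around *MET12*, *MEU1* and *MET32* the other list's numbers skip 1, 2 and 2 calls. These may lie anywhere between the flanking listed peaks, over intervals of 9472, 9409 and 5244 bp, so a call without a listed gene at these places is possible.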

How the data were processed

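The members and the pathway list were chosen with earlier results of these data known, so nothing here is independent evidence. Of the 6 samples in the series, the peak lists of the 2 H3K4me3 libraries were used; the pan-H3 and whole cell lysate libraries were not analysed here. Reads were aligned by the authors with Bowtie2 2.2.3 at standard settings to the iGenomes yeast reference, and peaks were called with MACS2 without broad regions; the control library of the call and the genome build are not given in the sources used here. The deposited pileup is a coverage signal whose scaling between the lists is not stated. The WT list's 12 empty columns were not used. The other deposited columns used are peak positions, peak breadth and gene length in bp. No sequence is shown.

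Peaks of the lists were matched by gene name, using the widest for genes with several. Edge shifts used the strand in the systematic name. Ranks are the percent of genes in a list with a lower value. Symbols, and which genes neighbour each other, came from the RefSeq table of assembly R64, which matched 10 of 10 and 30 of 30 names; no coordinate was taken from it. Named were all members, *JHD2*, the pathway genes past 100 bp or listed in 1 list, those with the largest and smallest difference, and the 3 genes nearest to *MET4* in edge shift; neighbours, *PCL10* and 4 regulators (*CBF1*, *MET31*, *MET28* and *MET30*) were added after their values were seen. Code was tested on simulated data. Python 3.11.15, numpy 2.4.6, pandas 2.3.3 and matplotlib 3.10.9 were used.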

Additional observations from a re-analysis of the deposited data

How the results depend on the processing

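No paired analysis was possible because a single H3K4me3 library stands for WT and another for *jhd2∆*, which also leaves no replicate to omit. With a limit of 50 bp in place of 100 bp, 6 of the 10 genes were wider in *jhd2∆* in place of 3, since *SAM2*, *ADO1* and *MET13* differ by 52 to 69 bp. The other 105 of 106 alternative values stayed within 5 bp, 5 percentage points or 1.5 times the reported count, and none changed sign. The 5 alternatives on which peaks are used (the highest in place of the widest, without peaks of several genes, without the peaks of lowest pileup, without peaks under 300 bp, and equal numbers from each list) are weak checks. Each of the 10 genes has a single tall peak, so they left every member's values as they were. Ranking among peaks or among genes in both lists moved no rank by more than 1.10 points. Depth, fragment length and calling threshold of the libraries are not recorded in the lists and cannot be told apart from the genotype.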

Other observations

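Over all 4970 listed genes, 6.88% were listed in *jhd2∆* alone and 2.05% in WT alone. Of the 20 neighbours on both sides of the 10 genes, 4 were listed in 1 genotype alone. Beside *SOD1* and *NUT2* these were *PLM2*, downstream of *SAM2*, and *SCS3*, upstream of *MET13*, both listed in *jhd2∆* alone. The *PLM2* peak measured 233 bp with a pileup of 189, above 0.719% of genes, and the WT numbers skip no call there. The *SCS3* peak measured 388 bp with a pileup of 245, above 14.4% of genes. The WT numbers skip 1 call in the 2247 bp between the flanking listed peaks.

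The 6 further genes of sulfate assimilation differed by -34 to 71 bp, with a median of 16.5 bp beside 17 bp over all genes. *MET3*, which encodes ATP sulfurylase, the step before Met14, had peaks of 808 and 810 bp. The methionine synthase gene *MET6* and the homocysteine synthase gene *MET17* had peaks of 949 and 962 bp and of 944 and 947 bp, and in WT pileup they stood above 95.8% and 93.3% of genes. In *jhd2∆* pileup they stood above 79.0% and 75% of genes. These genes were chosen after their values were seen.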
